A study of Mus musculus with 6 samples.

Results

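Transporters of the solute carrier class that move amino acids, sugars, lactate and fatty acids across cell membranes were compared between young and old mouse neural stem cells, the brain cells that renew themselves and form neurons and glia. The genes were chosen by symbol alone, as all members of 11 families (Slc1a, Slc2a, Slc3a, Slc5a, Slc6a, Slc7a, Slc16a, Slc27a, Slc36a, Slc38a and Slc43a) with a probe set of their own on the array. There were 102 such genes, and each stands for its brightest probe set, a group of short probes that read 1 transcript. RNA was measured on 6 Affymetrix arrays, 3 with neural stem cells of 6-week-old C57BL/6JRj mice (young) and 3 with those of 9-month-old mice of the same substrain (old). Beyond strain, age and cell type, nothing on treatment, sex, brain region or culture was given in the sources used here. No label ties a replicate to its own animal or culture, so each p-value speaks only of the spread among these 6 samples, and that spread may be technical. On the array 18193 genes had a probe set of 1 symbol.

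Amino acid carriers divide the work by how they are driven. Slc1a and Slc6a carriers are driven by the sodium gradient and clear transmitters such as glutamate, glycine and GABA, also into glia. Slc38a carriers move glutamine and small neutral amino acids, and Slc7a carriers mostly exchange one amino acid for another and often need an Slc3a heavy chain to reach the membrane. Several Slc36a carriers run on protons, and Slc43a carriers let large neutral amino acids pass down their gradient. Slc2a proteins let glucose and related sugars pass down their gradient, Slc5a proteins pull sugars and inositol in with sodium, Slc16a proteins carry lactate, pyruvate and related acids, and Slc27a proteins aid the uptake of long-chain fatty acids. In the brain, glia are known to supply neurons with glutamine and lactate through several of these carriers.

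The stretch before the gene start is shown for 3 carriers that were higher in old cells, chosen because it holds 1 of 2 short words. Slc27a1, also higher and with 2 matches of ACGTG, is not shown. Whether the factors named below act on these genes was not tested. The word TGATGNAA, a core of sites for the amino acid response factor ATF4, and the word ACGTG, the core of sites for the low-oxygen factor HIF, were searched on both strands. Sequences are from RefSeq (GRCm38.p6), 250 bases up to the gene start, 5′ to 3′ along the gene, with matches in capitals.
Slc7a11 (chr3:50443614-50443863, minus strand): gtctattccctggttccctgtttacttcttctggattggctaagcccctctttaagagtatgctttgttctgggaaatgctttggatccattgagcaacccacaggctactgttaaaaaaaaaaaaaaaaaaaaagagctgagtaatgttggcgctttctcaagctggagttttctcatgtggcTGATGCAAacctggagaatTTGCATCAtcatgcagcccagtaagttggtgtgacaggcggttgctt
Slc2a1 (chr4:119108495-119108744, plus strand): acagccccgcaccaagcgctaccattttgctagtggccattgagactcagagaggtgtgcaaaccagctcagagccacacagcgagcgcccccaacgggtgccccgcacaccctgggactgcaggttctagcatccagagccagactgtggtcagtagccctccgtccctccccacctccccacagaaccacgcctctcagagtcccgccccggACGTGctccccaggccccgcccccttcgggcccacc
Slc36a1 (chr11:55204090-55204339, plus strand): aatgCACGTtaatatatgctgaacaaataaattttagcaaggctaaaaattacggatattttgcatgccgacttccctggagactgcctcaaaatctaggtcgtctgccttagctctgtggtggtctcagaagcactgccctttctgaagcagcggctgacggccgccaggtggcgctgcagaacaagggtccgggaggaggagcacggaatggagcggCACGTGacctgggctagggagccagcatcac
Slc7a11 holds TGATGNAA on the gene's own strand, starting 66 bases before the start, and again on the opposite strand, starting 47 bases before it. Slc2a1 holds ACGTG once, and Slc36a1 holds it 3 times, of which 2 are the same palindrome CACGTG read on both strands. Promoters of 75 of the 102 genes were in the table, 14 of them of genes called changed. TGATGNAA was found in 1 of 9 promoters of higher genes, 0 of 5 of lower genes and 0 of 16 of genes not called, against 3.45% of all 32851 promoters. ACGTG was found in 3 of 9, 0 of 5 and 5 of 16, against 16.6% of all promoters. Among untested transporters TGATGNAA was found in 2 of 45 and ACGTG in 14 of 45. Among all 75 transporters with a promoter they were found in 3 and 22. Transporters were counted by gene and the whole set by promoter, so the shares are not of the same unit. A match describes the letters and no more.

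Several values touch all comparisons. Within young arrays r was 0.979 to 0.993, within old arrays 0.995, and between the ages 0.915 to 0.944, all across 19858 probe sets, which are not independent, and young replicate 2 stood apart from its fellows (0.979 and 0.986, against 0.993 between the other young arrays). Without it, 14 transporters were higher and 9 lower in old cells, against 12 and 10 with all arrays. All 18 hybridisation controls, RNA added in a fixed amount, were lower on every old array, by 0.96 on the log2 scale in the mean (-0.96). The actin controls, which bear on RNA quality, read higher at the 3′ than at the 5′ end on each array. The gap was 0.569 to 0.654 on young and 0.668 to 0.731 on old arrays (log2), so the ages did not overlap. The part of either kind of control in the results was not tested. Of the stem cell and radial glia markers all 8 lay above the filter and 3 were lower in old cells, Nes (-0.46), Sox9 (-0.35) and Hes5, at least 13.7-fold, while Sox2, Vim, Fabp7, Pax6 and Slc1a3 did not pass. Of 8 astrocyte markers 4 were higher, Aqp4, Aldh1l1, Gja1 and S100b, and 1 was lower, the glutamate carrier Slc1a2. Gfap (0.31), Aldoc (-0.11) and Slc6a11 (-0.30) did not pass. The summed linear signal of all 8 ranged from 31400 to 32600 on young and from 38500 to 41300 on old arrays. Gja1, by far the brightest of the 4 higher markers (mean 12.58 in young and 13.94 in old cells), weighs most in that rise. It is thus no measure of a shared gain of these markers, and the part of astrocyte-like RNA in the results was not tested. Of 3 neuron markers tested, Tubb3 (-5.67) and Snap25 were lower and Map2 did not pass. Tubb3 read 4.06, 3.46 and 3.98 on the old arrays, around log2 4, so the size of its change is uncertain. Dcx, not tested, read 5.36, 5.03 and 3.17 in young cells and 2.14 on each old array. Snap25 and Hes5 lay under log2 4 on every old array. They passed the filter through the young arrays alone, so they had to differ. Of 4 oligodendrocyte lineage markers tested Pdgfra (-1.44) and Cspg4 (-1.99) were lower, while the brighter Olig1 (0.045) and Olig2 (0.089) did not pass. Sox10, Mbp and Mog were at 2.14 throughout. The summed linear signal of this list ranged from 18200 to 19500 on young and from 18800 to 20200 on old arrays. Neuron markers Rbfox3, Stmn2, Slc17a7 and Slc17a6, all 7 microglia markers, the endothelial markers Pecam1, Cdh5 and Cldn5 and the fibroblast markers Col1a2, Dcn and Lum lay below log2 4 on every array, while the endothelial marker Flt1 was lower in old cells (-1.22). Slco1c1, another endothelial marker, was not tested and went the other way, from 2.14 on each young array to 3.34, 3.18 and 4.73. Foxj1, which marks ciliated ependymal cells, was under log2 4 on each young array, so it too had to differ. It was at least 3.50-fold higher in old cells, while the choroid plexus marker Ttr stayed at 2.14 on all 6 arrays.

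A gene was tested if its probe set lay above log2 4, used here in place of a detection call, on at least 3 of the 6 arrays. Of the 102 transporters 41 were tested and 61 were not, of which 54 stayed at or under log2 3 on every array. In old against young cells 22 of the 41 passed (limma, Benjamini-Hochberg adjusted p under 0.05 over all 19858 probe sets), 12 higher and 10 lower in old cells. Of the higher genes Slc2a10 and Slc5a9 passed the filter through the old arrays alone, so they had to differ. Over all 10050 genes tested the same rule called 40.6%, 22.0% higher and 18.5% lower, and over all probe sets 36.6%, against 53.7%, 29.3% and 24.4% here. The median change was 0.07 for the transporters and 0.01 for all genes, and the median size of a change without its sign was 0.54 against 0.23. Fitted changes of at least log2 1 past the threshold were seen for 9 transporters, 6 higher and 3 lower. Among all genes the share was 11.5% (6.62% higher and 4.84% lower). The 6 higher include Slc5a9, whose size was not measured and which was at least 1.38-fold higher against log2 4. The ages did not overlap for 30 of the 41, against 60.0% of all genes. In bulk RNA of this kind, fewer cells that hold a transcript and less of it per cell cannot be told apart.

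**Figure D1:**
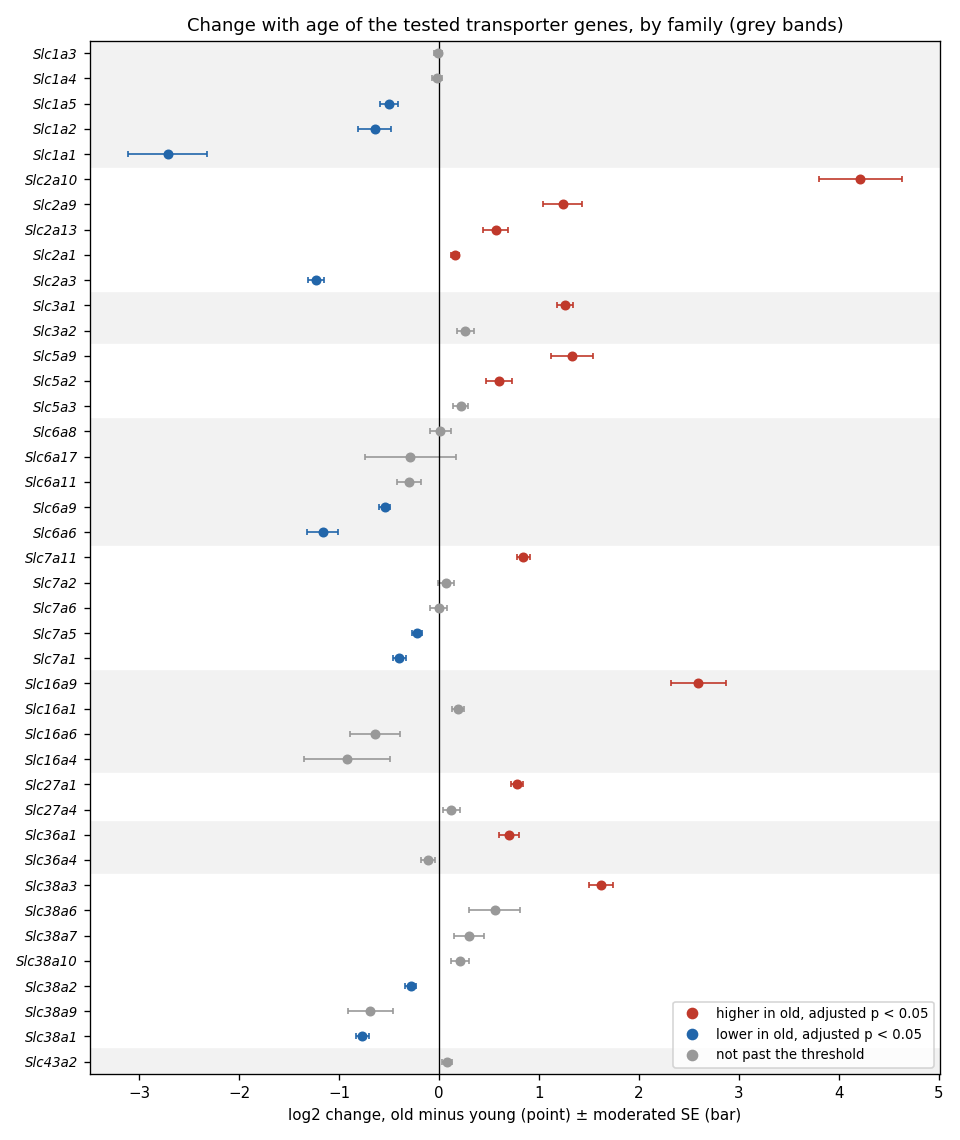
Change of the 41 tested transporters from young to old cells on the log2 scale (horizontal axis, point and moderated standard error), grouped by family in alternating bands, red for higher, blue for lower and grey for not past the threshold. The points of Slc2a10 and Slc5a9 are fitted values from young arrays under log2 4 and show no measured size. Slc1a and Slc6a hold lower or uncalled genes and no higher one, while 4 of 5 Slc2a genes are higher and Slc2a3 is lower. Among all genes 22.0% were higher and 18.5% lower.

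The glutamate and neutral amino acid carriers of family Slc1a were lower or not called in old cells. Of 7 genes 5 were tested, 3 fell and none rose (60% called, against 40.6% of all genes). Slc1a1, a glutamate carrier that also takes up cysteine and is known from neurons, read 10.69, 10.45 and 10.46 on the young arrays and 8.05, 6.94 and 8.46 on the old arrays (log2, replicates 1 to 3 here and below). Every old array lay below every young one, and old replicate 2 was the lowest. The change was -2.71 ± 0.40 (SE), a 6.56-fold lower level (limma, adjusted p = 0.00506), and its other tested probe set was lower as well (-1.88). The main glial glutamate carrier Slc1a2 read 11.79, 11.97 and 11.84 in young and 11.06, 11.58 and 11.03 in old cells. Old replicate 2 lay closest to the young arrays, and the change of -0.64 ± 0.17 (adjusted p = 0.0311) was no longer called once any single array except old replicate 2 was dropped (adjusted p up to 0.0941), nor without the filter, with array weights or for the mean over its probe sets. Its 2 other tested probe sets had -0.41 and -0.63 and did not pass. The glutamine carrier Slc1a5 was dim, at 5.64, 5.47 and 5.58 against 5.23, 4.93 and 5.03. Its change was -0.50 ± 0.094 (adjusted p = 0.0117).

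The radial glial glutamate carrier Slc1a3 and the serine carrier Slc1a4 did not pass. Slc1a3 read 14.06, 14.07 and 14.08 in young and 14.07, 14.06 and 14.07 in old cells, a difference of -0.0069 ± 0.040 (adjusted p = 0.907). Of its 5 other tested probe sets 1 passed, with -0.29 (adjusted p = 0.0216), and on another young replicate 2 stood at 11.84, with its fellows at 9.69 and 10.42. Slc1a4 read 13.58, 13.51 and 13.50 against 13.46, 13.52 and 13.54 (adjusted p = 0.797) at its brightest probe set, while its dimmest tested probe set was lower by -0.46 (adjusted p = 0.0422). The remaining 2 family members lay near the lowest value of the table on all arrays, at most 2.15.

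Of the sodium-driven transmitter carriers of family Slc6a, 5 of 20 genes were tested, 2 fell and none rose. The share called, 40%, was near the 40.6% of all genes. The taurine carrier Slc6a6 read 11.47, 11.40 and 11.62 in young and 10.15, 10.19 and 10.65 in old cells. Each old array lay under each young array, with a change of -1.17 ± 0.15, 2.24-fold (adjusted p = 0.00349), and -0.95 at its other probe set (adjusted p = 0.00269). The glycine carrier Slc6a9 read 12.80, 12.89 and 12.89 against 12.26, 12.33 and 12.37. The ages were far apart against their spread, with -0.54 ± 0.055 (adjusted p = 0.00154) and -1.21 at a dimmer probe set (adjusted p = 0.00453). In the RefSeq annotation Slc6a9 overlaps the gene Ccdc24, whose transcript was not told apart here.

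The GABA carrier Slc6a11, known from astrocytes, read 12.30, 12.15 and 12.17 in young and 12.09, 11.96 and 11.68 in old cells. The ages did not overlap, but the change of -0.30 ± 0.12 did not pass (adjusted p = 0.106). The creatine carrier Slc6a8 (0.013, adjusted p = 0.935) and the vesicular neutral amino acid carrier Slc6a17 (-0.29, adjusted p = 0.643) did not pass either. Slc6a8 read 10.76, 10.65 and 10.69 against 10.51, 10.73 and 10.89. Slc6a17 read 8.24, 7.96 and 8.31 in young cells and spread widely in old cells, with 6.96, 7.95 and 8.75. The 15 untested members, among them the carriers of noradrenaline (Slc6a2), dopamine (Slc6a3) and serotonin (Slc6a4), lay at 2.14 on all 6 arrays.

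**Figure D2:**
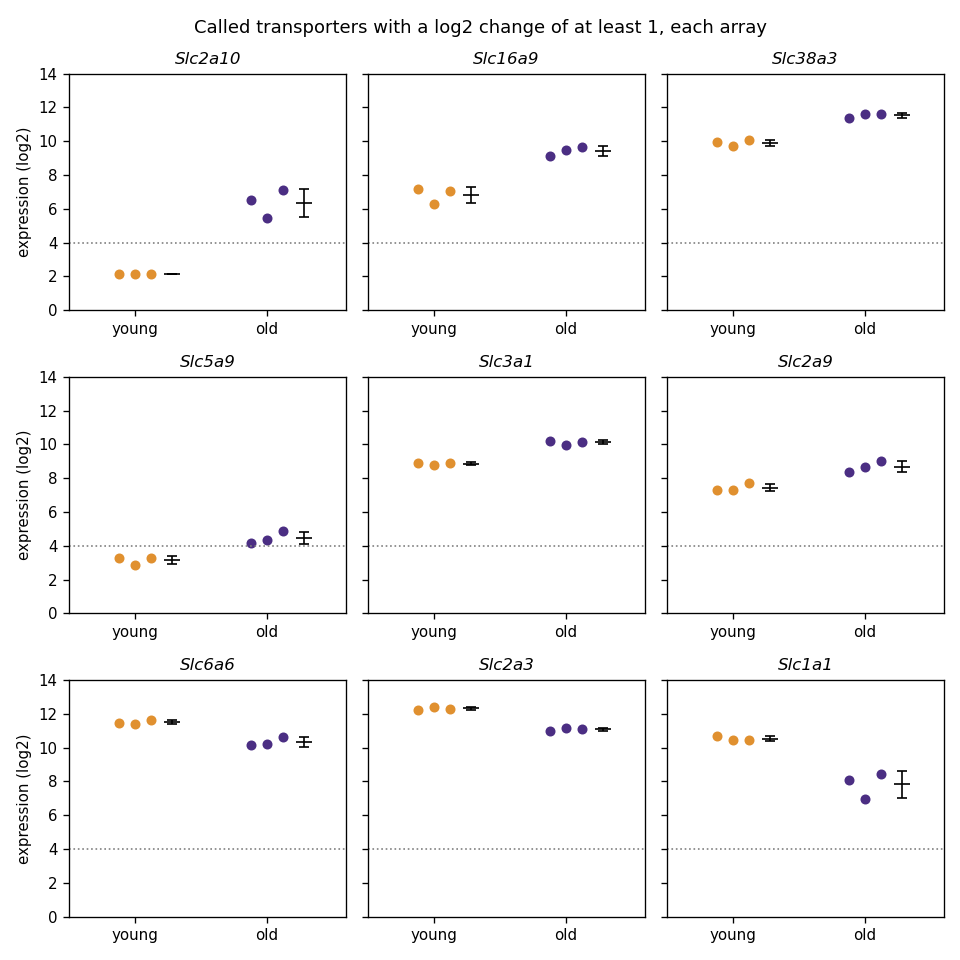
Expression on each array (vertical axis, log2) of the 9 transporters past the threshold with a fitted change of at least log2 1. Young arrays are in orange and old in purple, with the mean and SD (n = 3) in black beside them. This choice of genes all but fixes that the ages do not overlap, and the young arrays of Slc2a10 and Slc5a9 lie below the dotted line at log2 4.

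In family Slc38a, whose members move glutamine and other neutral amino acids, genes went both ways. Of 9 genes 7 were tested, 1 rose and 2 fell. The share called, 42.9%, was near the 40.6% of all genes. Slc38a3, the glutamine carrier known from astrocytes and able to release it, read 9.94, 9.72 and 10.07 in young and 11.36, 11.62 and 11.62 in old cells. All old arrays stood well above all young ones, with a change of 1.62 ± 0.12, 3.08-fold (adjusted p = 0.000596). Slc38a1, a carrier for glutamine uptake, read 14.02, 14.07 and 14.02 against 13.37, 13.20 and 13.23, a change of -0.77 ± 0.062 (adjusted p = 0.000778). Its dimmer probe set fell further, from 9.75, 9.84 and 9.85 to 7.50, 7.24 and 7.53 (-2.39, adjusted p = 8.01e-05), so the sign was shared and the size was not. Slc38a2, known to be induced when amino acids run short, read 12.56, 12.56 and 12.55 against 12.37, 12.22 and 12.24. Its change of -0.28 ± 0.057 (adjusted p = 0.0141) did not pass without old replicate 2 or 3 (adjusted p up to 0.0536) or for the mean over its probe sets, and the other 2 probe sets had 0.025 and -0.15.

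Slc38a1 and Slc38a2 are neighbours on chromosome 15, followed by Slc38a4, which was at 2.14 on all 6 arrays. Both neighbours that could be tested thus fell. Of the other tested genes, the lysosomal arginine sensor Slc38a9 read 8.91, 9.23 and 8.57 in young and 8.09, 7.98 and 8.57 in old cells, and did not pass (-0.69, adjusted p = 0.0647). Its 4 tested probe sets disagreed, 1 with -0.72 (adjusted p = 0.0748) and the dimmest with 0.53 (adjusted p = 0.0266). Slc38a6 (0.56), the lysosomal glutamine carrier Slc38a7 (0.30) and Slc38a10 (0.21) had adjusted p of 0.143, 0.162 and 0.134. All 3 tested probe sets of Slc38a10 were positive, and 1 of the dimmer ones passed (0.29, adjusted p = 0.0133).

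Of the exchangers of family Slc7a 5 of 15 genes were tested, 1 rose and 2 fell (60% called, against 40.6% of all genes). Slc7a11, which brings in cystine for glutathione in exchange for glutamate and whose promoter is printed above, was dim and higher in old cells. It read 4.67, 4.80 and 4.68 in young and 5.50, 5.55 and 5.63 in old cells, tight within each age, with a change of 0.84 ± 0.063, 1.79-fold (adjusted p = 0.000586). Its other probe set, under 4 on every array, was not tested. The arginine and lysine carrier Slc7a1 read 13.87, 13.81 and 13.71 against 13.46, 13.34 and 13.38, a change of -0.40 ± 0.064 (adjusted p = 0.00694), with -0.83 at its other probe set (adjusted p = 0.00098). Slc7a5, the light chain of the main exchanger for leucine and other large neutral amino acids, read 13.01, 13.03 and 13.10 against 12.78, 12.84 and 12.85. The change was small, -0.22 ± 0.049 (adjusted p = 0.019), and was lost without young replicate 3 or any 1 old array, with adjusted p up to 0.0655, and with the replicate block. The cationic amino acid carrier Slc7a2 read 7.19, 7.22 and 7.23 against 7.41, 7.28 and 7.15 and did not pass (0.068, adjusted p = 0.517), nor did Slc7a6 (-0.0028, adjusted p = 0.983). The other 10 members stayed under log2 4 on all arrays.

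The heavy chains that carry Slc7a proteins to the membrane were both tested. Slc3a2, the partner of Slc7a5 and Slc7a11, read 12.64, 12.45 and 12.73 in young and 12.80, 12.90 and 12.91 in old cells. The ages did not overlap but were close, and the change of 0.26 ± 0.085 did not pass (adjusted p = 0.0617). Slc3a1, a heavy chain known from kidney and gut, read 8.87, 8.80 and 8.93 against 10.23, 9.99 and 10.17, a change of 1.26 ± 0.080, 2.40-fold (adjusted p = 0.000352). Slc3a1 overlaps Prepl, a peptidase gene, in the RefSeq annotation, and Prepl rose as well, by 0.77 from a mean of 10.77 to 11.54. Whether the Slc3a1 probe set also reads Prepl was not tested. The light chain known to pair with Slc3a1, Slc7a9, was at 2.14 on all arrays.

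Of family Slc36a 2 of 4 genes were tested. Slc36a1, which exports small amino acids from lysosomes and whose promoter is printed above, read 7.71, 7.57 and 7.44 in young and 8.36, 8.35 and 8.13 in old cells, and rose by 0.70 ± 0.10 (adjusted p = 0.00475). Old and young arrays did not overlap. Slc36a4 read 12.06, 12.19 and 12.003 against 12.06, 11.91 and 11.94 and did not pass (-0.11, adjusted p = 0.274). In family Slc43a the leucine carrier Slc43a2 alone of 3 was tested, with 9.75, 9.78 and 9.75 against 9.81, 9.81 and 9.91, and did not pass (0.08, adjusted p = 0.236).

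All 5 tested members of the glucose transporter family Slc2a passed, 4 higher and 1 lower, with 6 others below the filter. Among all genes 40.6% were called, 22.0% higher and 18.5% lower. Slc2a10 passed the filter through the old arrays alone, so it had to differ. The calls of Slc2a1 and Slc2a13 were lost on leaving out single arrays. Slc2a3, the high-affinity glucose carrier known from neurons, read 12.23, 12.42 and 12.30 in young and 10.98, 11.17 and 11.11 in old cells. Old arrays lay below all young ones and the change was -1.23 ± 0.079, 2.34-fold (adjusted p = 0.000376), and its other probe set had -1.27 (adjusted p = 0.000383). Slc2a1, the common glucose carrier of glia and vessels, read 13.64, 13.63 and 13.62 against 13.78, 13.80 and 13.79. The ages were apart by 0.16 ± 0.041, or 1.12-fold (adjusted p = 0.0319). It did not pass when any single array was dropped (adjusted p up to 0.104), with the replicate block or for the mean over its probe sets, of which the other 2 had 0.19 and 0.07. Both are known targets of the low-oxygen response, and they differed in sign here, a contrast that was not tested as such.

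The other 3 are not mainly glucose carriers of brain cells. Slc2a10, known for its loss in arterial tortuosity syndrome, was at 2.14 on the 3 young arrays and at 6.51, 5.45 and 7.09 in old cells. Against log2 4 it was at least 5.11-fold higher in old cells (adjusted p = 0.00141), and at least 1.69-fold at its other probe set, also at 2.14 on each young array. With the young arrays at the lowest value of the table their spread is not measured. The urate carrier Slc2a9 read 7.31, 7.30 and 7.70 against 8.35, 8.66 and 9.00, a rise of 1.24 ± 0.20, 2.35-fold (adjusted p = 0.0069). The inositol carrier Slc2a13 read 9.25, 9.38 and 9.13 against 9.88, 9.59 and 9.998. Its rise of 0.57 ± 0.13 (adjusted p = 0.0205) was lost without young replicates 1 or 3 or old replicates 1 or 3, with adjusted p up to 0.068, without the filter and with the replicate block. Among the untested members the fructose carrier Slc2a5, a microglia marker, was at 2.14 on all arrays.

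Of the sodium-coupled sugar carriers Slc5a 3 of 13 genes were tested, 2 rose and none fell (66.7% called, against 40.6% of all genes). Slc5a9, a mannose carrier, read 3.28, 2.85 and 3.27 in young and 4.19, 4.35 and 4.85 in old cells. Against log2 4 it was at least 1.38-fold higher in old cells (adjusted p = 0.00688), and at least 1.42-fold at its other tested probe set. Both probe sets were under log2 4 on every young array, where spread is understated. The renal glucose carrier Slc5a2 read 9.60, 9.23 and 9.65 against 10.18, 9.99 and 10.11, a rise of 0.60 ± 0.13 (adjusted p = 0.0178) that was lost without old replicate 1 or 3 (adjusted p up to 0.0611) and without the filter. The gene overlaps Rusf1 in the RefSeq annotation, and Rusf1 rose by 0.57, from 9.85 to 10.42, and the second Slc5a2 probe set had 0.59. Whether the probe set reads Rusf1 was not tested. The inositol carrier Slc5a3, which overlaps Mrps6, read 13.35, 13.48 and 13.25 against 13.52, 13.58 and 13.64 and did not pass (0.22, adjusted p = 0.0719). Its dimmer tested probe sets had larger changes, 0.48 and 1.02, and did not pass either (adjusted p = 0.181 and 0.076).

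The lactate and monocarboxylate carriers Slc16a had 4 of 13 genes tested, of which 1 rose and none fell (25% called, against 40.6% of all genes). Slc16a9, tied to the transport of carnitine and creatine, read 7.14, 6.27 and 7.05 in young and 9.12, 9.45 and 9.66 in old cells. Young replicate 2 was the lowest, the ages were well apart, and the rise of 2.59 ± 0.28, 6.03-fold, had an adjusted p of 0.00184. Slc16a1, the common lactate carrier, read 13.28, 13.16 and 13.10 against 13.35, 13.36 and 13.38. The ages did not overlap, yet the change of 0.19 ± 0.060 did not pass (adjusted p = 0.0595). Slc16a6 read 6.82, 6.78 and 7.42 against 6.21, 6.14 and 6.75 and did not pass (-0.64, adjusted p = 0.0959), though it did with the replicate block (adjusted p = 0.00951) and with array weights (adjusted p = 0.0497). Slc16a4 did not pass (-0.92, adjusted p = 0.151). For Slc16a4 young replicate 2, at 10.69, stood above its fellows at 9.06 and 9.44, with old arrays from 8.71 to 8.99.

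Below the filter, the high-affinity lactate carrier Slc16a7 read 6.49, 5.43 and 3.66 in young and 2.16, 2.14 and 2.14 in old cells. It was above log2 4 on 2 young arrays and so was not tested. Slc16a13 read 2.17, 2.33 and 2.74 against 3.89, 4.21 and 4.42. The lactate exporter Slc16a3 was at 2.14 on all arrays. The lactate carriers of this family are known to need a glycoprotein partner at the membrane. Of those partners, Bsg had a difference of -0.16 (adjusted p = 0.1), Nptn rose by 0.28 from 13.25, 13.14 and 13.26 to 13.51, 13.48 and 13.51 (adjusted p = 0.0118), and Emb, below the filter, read 5.26, 3.49 and 4.84 in young cells and 2.14 on each old array.

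Of the fatty acid carriers Slc27a 2 of 5 genes were tested. Slc27a1, which takes up long-chain fatty acids, read 11.65, 11.56 and 11.67 in young and 12.40, 12.33 and 12.49 in old cells, and rose by 0.78 ± 0.063, 1.72-fold (adjusted p = 0.000758). Its dimmer probe set rose by 1.49 (adjusted p = 0.0136). Slc27a4 read 8.62, 8.36 and 8.60 against 8.64, 8.70 and 8.62 and did not pass (0.12, adjusted p = 0.296).

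Agreement between probe sets was then compared over the 22 tested transporters with more than 1 tested probe set. All probe sets had the same sign in 18 of the 22. Of the 13 called genes among them, 12 kept 1 sign and 10 were called the same way at each tested probe set. Slc38a2 was the called gene with mixed signs, and among uncalled genes Slc1a3, Slc38a9 and Slc6a8 had mixed signs. Sizes differed more than signs, in both directions. For Slc38a1, Slc6a9, Slc7a1 and Slc27a1 the dimmer probe set had the larger change, while for Slc1a1 and Slc6a6 it had the smaller one.

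**Figure D3:**
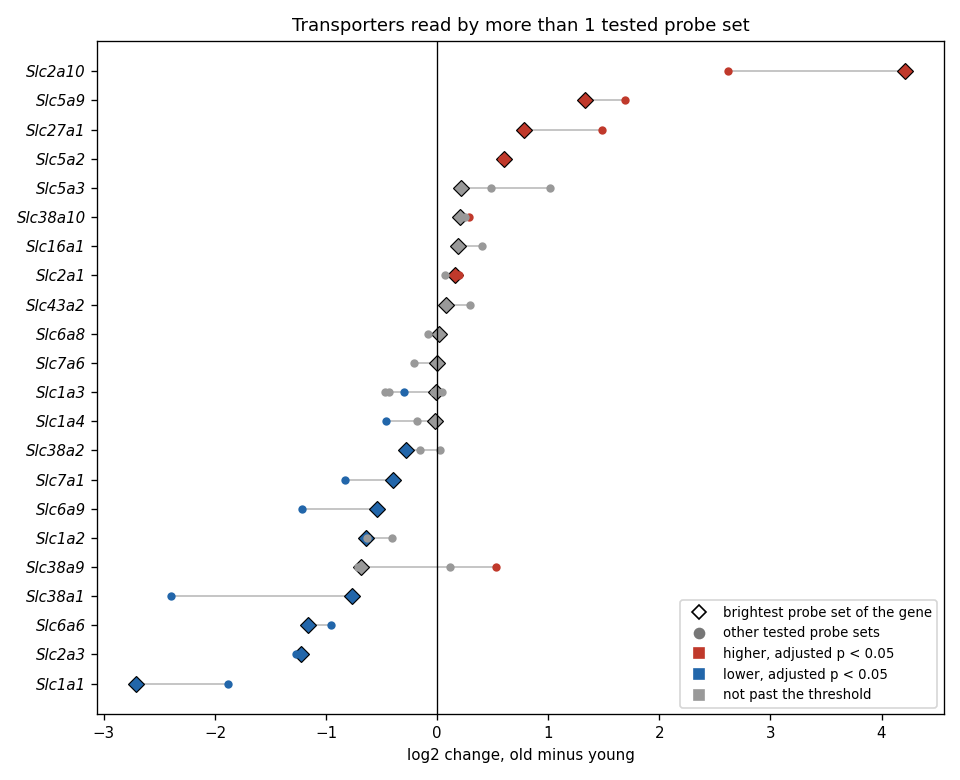
Log2 change from young to old (horizontal axis) at each tested probe set of the 22 transporters that have more than 1, with the brightest as a diamond and the same colours for higher, lower and uncalled. Most genes keep to one side of 0, and Slc38a9 spans -0.72 to 0.53.

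Genes that work with these carriers were counted from fixed lists, to be read against 22.0% higher and 18.5% lower among all genes. Of 10 enzymes of branched-chain amino acid breakdown 8 rose and 1 fell, with Bcat2 (1.11) and Mccc2 (0.83) leading, the Bcat2 call being lost without old replicate 2 or 3, without the filter and with the replicate block. Bcat1, the cytosolic transaminase that starts the pathway, was the member that fell, from 12.96, 12.95 and 12.89 to 10.08, 9.81 and 9.69 (-3.07, adjusted p = 5.53e-05). Of 12 enzymes of GABA, glycine, taurine and creatine metabolism 7 rose and 2 fell. Gad1, which makes GABA, rose by 1.58 and Abat, which breaks it down, by 0.96, while the serine to glycine enzymes Shmt2 and Shmt1 had changes of -0.54 and -0.50. Of 8 glutamate, glutamine and asparagine enzymes 1 rose, Got1 by 0.60, and 1 fell, Aldh18a1 with -0.24, a call lost without young replicate 3 or old replicates 1 or 3. Glutamine synthetase Glul stayed between 14.15 and 14.24 on all 6 arrays (adjusted p = 0.611).

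Of 12 enzymes of lactate, pyruvate and hexose use 5 rose and 5 fell. Pdk1, which blocks pyruvate entry into mitochondrial oxidation, had a change of -1.52 and the hexokinase Hk2 one of -0.91, while its relative Pdk2 rose by 1.57. Txnip, which curbs glucose uptake by carriers of family Slc2a, rose from 8.07, 8.49 and 8.21 to 10.27, 10.21 and 10.37 (2.03, adjusted p = 0.000289). In the amino acid response 5 of 11 genes fell and 1 rose. Chac1, which degrades glutathione, fell at least 8.52-fold. It passed the filter through the young arrays alone, so it had to differ. The stress factor Ddit3 had a change of -1.45, while Nupr1 rose by 1.11. The Nupr1 call was lost without any 1 array other than old replicate 1 and without the filter. Of 23 genes of amino acid sensing by mTORC1 2 rose and 3 fell, led by Rragd (-0.91) and Depdc5 (-0.74) on the lower side, with Sesn3 (0.44) and Lamtor2 (0.24) on the higher. The Depdc5 call was lost without each single array except old replicate 2, without the filter, with the replicate block and with array weights. The Lamtor2 call was lost without young replicates 1 or 3 or old replicates 2 or 3, without the filter, with the replicate block and under both other scalings.

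Of 8 genes of cystine and glutathione metabolism 2 rose and none fell. They were Cbs, which channels homocysteine towards cysteine (1.85, adjusted p = 0.000636), and Gclm, a subunit of the enzyme that starts glutathione synthesis (0.41, adjusted p = 0.00522). Of 7 genes of fatty acid binding and activation 1 rose, Acsl5 by 0.50, and 1 fell, Acsl6 from 8.92, 8.92 and 9.43 to 4.93, 4.90 and 5.12 (-4.11, adjusted p = 8.28e-05). The radial glial binding protein Fabp7 did not pass (-0.14, adjusted p = 0.0557).

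**Figure D4:**
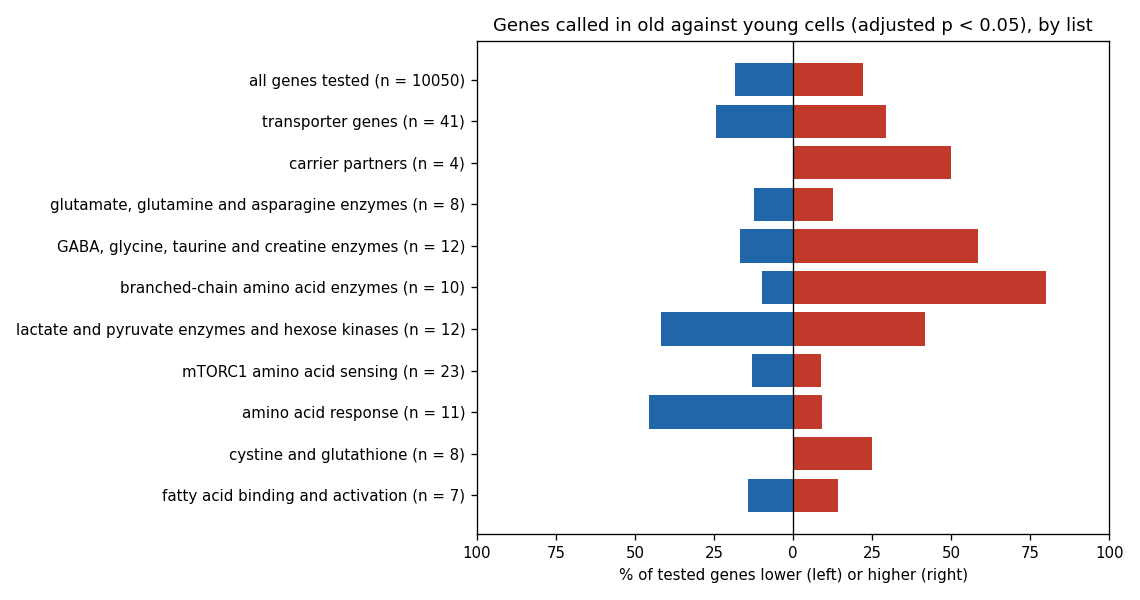
Percent of tested genes called higher (right, red) or lower (left, blue) in old cells for all genes, the transporters and each list of related genes, with the number tested in brackets. The branched-chain list has 8 of 10 genes on the higher side, and the amino acid response has 5 of 11 on the lower side. Of these 5, Chac1 passed the filter through the young arrays alone.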

How the data were processed

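RNA of 6 samples was labelled and hybridised to 1 array each. Per the submitters' processing notes, the authors made the deposited log2 values with GCRMA, a method that corrects background, normalizes arrays and combines the probes of each set. No version is given in the sources used here. That the scale is log2 follows from the range of the values, whose lowest, 2.14, is shared by all arrays. Dim probe sets sit near that value, which understates their spread. The depth of an array is not a count, and the number of arrays limits the precision.

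Of 45101 probe sets 64 were controls, 34945 had 1 gene symbol, 932 had several and 9160 had none. Symbols come from the platform annotation, and 99.4% matched RefSeq (GRCm38.p6) by Entrez identifier, with 0 changed. Probe sets with several symbols named no gene, and antisense and pseudogene symbols were left out. Each gene is represented by its brightest probe set (mean of 6 arrays). The 19858 probe sets above log2 4 on at least 3 arrays were tested by two-sided moderated tests of age alone (limma 3.58.1, R 4.3.3, eBayes with no trend), with Benjamini-Hochberg adjustment over all of them. Where all arrays of an age were under log2 4, the fold is a lower bound set against log2 4. The test was checked on simulated data.

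The members and lists were chosen with earlier results of these data known. By the rule for named genes, values on each array are given for called members with a change of at least log2 1, the up to 4 members of each family with the smallest p and a fixed set of well-known carriers, and related genes are named by the 2 largest calls in each direction. Some dim members, other probe sets, Glul and Fabp7 were named after their values were seen. The labels do not say that a replicate number pairs arrays, so it was not taken as a pairing. Deviations of same-numbered arrays of the 2 ages had r of -0.16, -0.108 and 0.157 across probe sets. With 3 arrays per age these values cannot settle whether samples were paired. Alternatives were other filters, a second quantile normalization, centring, the replicate block, array weights, trended and robust eBayes, the mean of a gene's probe sets, a fold threshold and leaving out each array. Plots used Python 3.11.15 and matplotlib 3.10.9.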

Additional observations from a re-analysis of the deposited data

How the results depend on the processing

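Against 12 transporters higher and 10 lower in old cells, leaving out 1 array gave 9 to 14 higher and 8 to 9 lower. With the replicate number as a block there were 10 higher and 10 lower, and the calls of Slc2a1, Slc2a13 and Slc7a5 were lost and that of Slc16a6, lower, was gained with the block. Among related genes named in the text, Bcat2, Depdc5 and Lamtor2 lost theirs with it. Adding a fitted change of at least log2 1 left 6 higher and 3 lower transporters by its own construction. Of the 28 higher and 18 lower related genes it left 6 higher and 6 lower. Of the related genes 18 to 26 were higher and 13 to 16 lower on leaving out 1 array, with 18 higher without old replicate 2 and 18 without old replicate 3.

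Of the 22 called transporters 16 passed on leaving out each array, 9 higher and 7 lower, and 15 of these also passed under the 9 other settings with the same threshold wherever they were tested. The exception was Slc1a5, which did not pass with trended and robust eBayes. The 9 higher include Slc2a10 and Slc5a9, which passed the filter through the old arrays alone. They had to differ, so their calls say nothing of stability. Among named genes, signs changed for 5 uncalled transporters. Slc1a4 ranged from -0.034 to 0.0069 on leaving out 1 array, Slc6a17 from -0.72 to 0.18, Slc6a8 from -0.078 to 0.11 and Slc7a6 from -0.070 to 0.057. Slc1a3 had 0.019 after quantile normalization, Slc6a8 had -0.00049 with array weights and -0.035 on the mean of its probe sets, and Slc7a6 had 0.017 with array weights. Of the uncalled transporters 8 passed under some other setting: Slc3a2, Slc5a3, Slc6a11, Slc16a1 and Slc38a9 with trended and robust eBayes, and Slc5a3, Slc16a1, Slc16a6, Slc38a6, Slc38a9 and Slc38a10 under others. The cause of these moves was not tested. Values near the lowest one of the table limit what can be said of dim members such as Slc2a10 and Slc5a9.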
